A study of Homo sapiens with 9 samples.

Results

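SR proteins and hnRNP proteins bind pre-mRNA and decide, with the spliceosome, which exons are kept. The genes described here are all rows of the deposited table whose gene name is SRSF followed by a number or starts with HNRNP, each represented by its row with the highest mean over the 9 libraries. They number 39 of 20442 genes, with 12 SR and 27 HNRNP genes. The cells were PC9, an established EGFR-mutant line of non-small cell lung cancer, carrying the FUCCI4 reporter of cell cycle stage (mKO2-CDT1 and Clover-GMNN). They were sampled untreated at day 0 or after 28 days in 500 nM osimertinib, an inhibitor of the EGFR tyrosine kinase. At each day they were fixed with glyoxal, permeabilised with saponin and sorted by DAPI and reporter into G1, S and G2.

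The 5 libraries of day 0 were G1 and S of clones 1 and 7 and G2 of clone 1. The 4 libraries of day 28 were G1 of both clones and S and G2 of clone 1. All cells carried the reporter, each clone is a single line, and the labels do not say whether libraries of a clone came from separate cultures, so p-values measure only the spread between these libraries. In sorted bulk libraries, fewer cells making a transcript and less RNA per cell cannot be told apart.

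SR proteins have an RNA recognition motif and a tail rich in arginine and serine, which kinases of the SRPK and CLK families phosphorylate. They bind exonic enhancers and help recruit U1 snRNP and U2AF to splice sites. The hnRNP proteins coat nascent transcripts, and several of them silence splice sites or mask exons, while others act in stability, export or translation. Many SR and hnRNP genes limit their own output through exons that bring an early stop codon and expose the RNA to nonsense-mediated decay.

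Each deposited value is the log2 of a read number times a factor of its library, over the stretch from start to stop codon with its introns. The reads over these spans numbered 8.83 M to 109 M per library (M for mega), a 12.3-fold range, and the day 0 G1 library of clone 7 was the shallowest. The mitochondrial share ran from 6.07% to 10.7% before treatment and from 8.61% to 21.6% after it. Spans over 300 kb, which are nearly all intron, held 0.726% to 1.05% of reads at day 0 and 2.06% to 3.41% at day 28. Of 8 lung epithelial markers, 7 passed the filter on low values, among them EPCAM and KRT18. NKX2-1 did not pass it, with a mean log2 value of 6.46, and NAPSA passed at 7.44, near the limit of 7.01. Of 9 leukocyte, fibroblast and endothelial markers, 2 passed it (COL1A1 and PECAM1). All 5 markers of G2 and mitosis were higher in G2 than in G1, with a median log2 difference of 4.46. For S against G1, 3 of these 5 were higher too (median 2.61). Of 5 S phase markers 0 passed for S against G1, with a median of 0.09, so these markers did not set the S libraries apart from G1.

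Of the 39 genes, 34 had a mean log2 value of at least 7.01, which is 10 reads in the shallowest library, and were tested: 11 SR and 23 HNRNP genes. The others were SRSF12, HNRNPCL1, HNRNPCL2, HNRNPCL3 and HNRNPCL4. HNRNPCL3 and HNRNPCL4, intronless copies of HNRNPC, had no read in any library. HNRNPCL1 had a mean log2 value of 6.12 ± 0.90 (SD, n = 5) at day 0 and 6.13 ± 0.81 (SD, n = 4) at day 28. HNRNPA1L2 and HNRNPA1L3 are near copies of HNRNPA1, so reads could be split among them, and HNRNPUL2-BSCL2 is a readthrough gene whose span holds all of HNRNPUL2. The span of SRSF6 lies to 99.7% within ENSG00000288000 of the same strand, and 24.0% of the HNRNPL span lies within ENSG00000268083.

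Per kb of span and M reads, HNRNPA1 had the highest median at day 0 with 326 reads, followed by HNRNPA2B1 with 248. HNRNPDL and HNRNPF both had 153, SRSF5 had 132 and SRSF2 had 127. SRSF11 had 7.94, HNRNPUL1 3.32, SRSF4 2.23 and HNRNPLL 1.18. These 4 spans are long, 29.2 kb for SRSF11, 42.1 kb for HNRNPUL1, 33.3 kb for SRSF4 and 38.7 kb for HNRNPLL, and their levels per kb include much intron. Some spans under 1 kb were low as well, with 9.74 for SRSF8, 9.51 for HNRNPA1L2, 5.55 for HNRNPA1L3 and 1.10 for HNRNPCL1. At day 28 SRSF5 was the highest of all 39 with 274 reads per kb and M reads, against 210 for HNRNPA1 and 149 for HNRNPA2B1.

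After 28 days of osimertinib, HNRNP genes were lower and SR genes had moved in both directions. Of 23 HNRNP genes tested, 17 fell and HNRNPH1 rose, and their median log2 difference of day 28 minus day 0 was -0.95. SRSF11, SRSF4 and SRSF5 rose, SRSF3, SRSF2, SRSF8 and SRSF9 fell, and the other 4 of the 11 SR genes did not pass. The test was limma on log2(value + 1) with day and phase as terms, over 12391 genes, and a gene is called when its Benjamini-Hochberg adjusted p is under 0.05. Of all genes tested, 55.1% were called, 28.6% higher and 26.6% lower, with a median log2 difference of 0.01. Under the other scalings the HNRNP median stayed below 0, at -1.06 with median-of-ratios, -0.67 with scaling by total reads and -0.20 with quantile scaling, while the SR median of -0.11 turned to 0.17 by total reads and 0.12 with quantile scaling. Quantile scaling left 11 of the 34 genes lower and 5 higher. Scaling by total reads left 14 lower and 5 higher, against 21 and 4 in the main fit. Of all 12391 genes, quantile scaling called 3400 lower and 3004 higher. Scaling by total reads called 2178 lower and 4489 higher, against 3291 and 3538 in the main fit. The median of all genes was -0.10 with median-of-ratios, 0.29 by total reads and -0.11 with quantile scaling.

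The share of lower calls among HNRNP genes was 73.9%, against 26.6% of all genes, but abundant genes as a whole were lower. Among the 874 tested genes with a mean log2 value of at least 14, 61.3% fell and 8.92% rose, with a median log2 difference of -0.80. Among the 314 of these with a span of up to 10 kb, 68.8% fell. Of the 15 HNRNP genes at that level 80% fell and 6.67% rose, and of the 6 SR genes 33.3% fell and 33.3% rose. Whether the families differ from genes of like abundance was not tested.

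**Figure D1:**
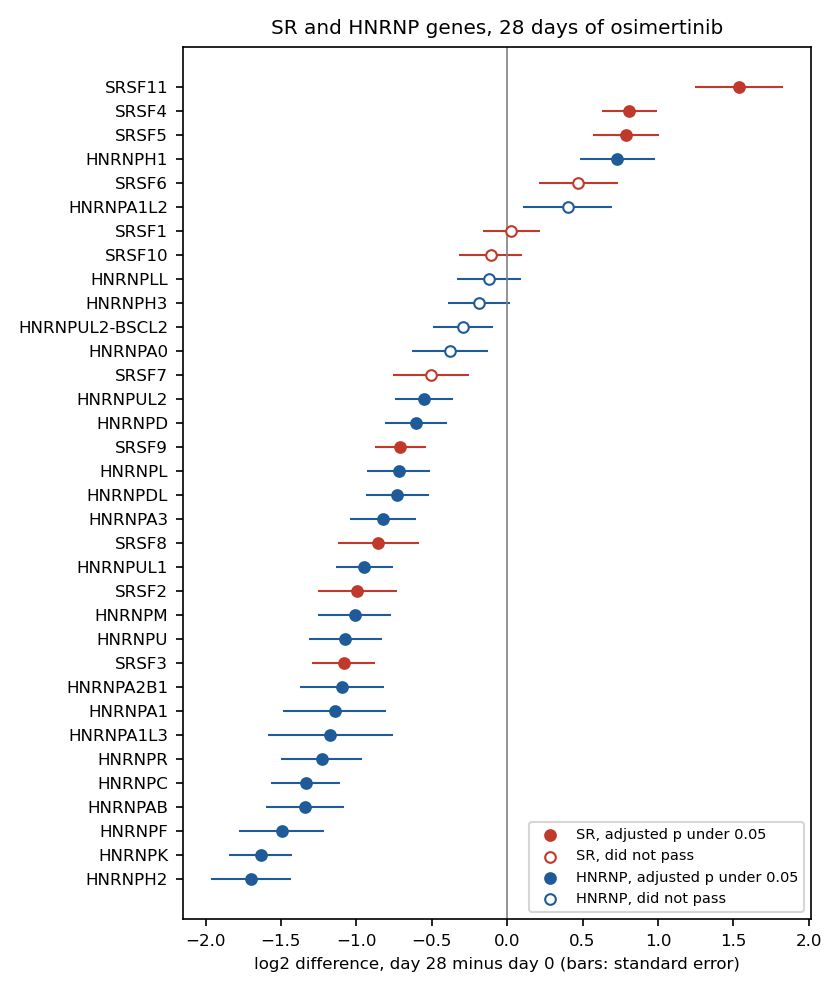
Log2 difference of day 28 minus day 0 for the 34 tested genes (x axis, bars are standard errors), ordered by size, with SR genes in red and HNRNP genes in blue. Filled points passed an adjusted p of 0.05. Blue points fill the lower end from HNRNPH2 at -1.70 upwards, and 3 of the 4 filled points on the right are SR genes.

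SRSF11, a protein with an arginine-serine tail that associates with U2AF, had the largest rise (chr1:70221637-70250805, plus strand, GRCh38). Its log2 values at day 0 were 14.05 and 15.51 in G1 of clones 1 and 7, 14.20 and 14.70 in S and 14.68 in G2. At day 28 they were 16.81 and 16.33 in G1, 15.92 in S and 15.80 in G2, so the days did not overlap, and the clone 7 G1 library was the highest of day 0. Of all genes tested, 20.9% had every day 28 library above day 0 and 18.9% every one below it. The log2 difference was 1.54 (SE 0.29, adjusted p = 0.00126), a 2.90-fold rise in reads over a span that is mostly intron. SRSF4, known as an activator of exon inclusion, went from 12.48 and 13.04 in G1, 13.09 and 13.05 in S and 12.77 in G2 to 13.80 and 13.41, 13.84 and 13.58. It rose by 0.81 (SE 0.18, adjusted p = 0.00339) without overlap.

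SRSF5, an SR protein whose RNA responds to insulin and growth signals, lies at chr14:69768157-69771461. Its values ran from 15.01 in the day 0 G1 library of clone 1 to 15.96 in that of clone 7, with 15.34 and 15.60 in S and 15.31 in G2. At day 28 it reached 16.40 in both G1 libraries, 16.10 in S and 16.05 in G2, again above all of day 0. The log2 difference was 0.79 (SE 0.22, adjusted p = 0.0107). SRSF11, SRSF4 and SRSF5 kept their calls in all 21 alternatives run.

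SRSF3, the smallest SR protein and a factor in export and polyadenylation as well as splicing, fell most among SR genes (chr6:36596763-36601989). It stood at 14.90 and 14.37 in G1, 15.22 and 14.82 in S and 15.35 in G2 at day 0, and at 13.51 and 13.46 in G1, 14.41 in S and 13.75 in G2 at day 28. Only the day 28 S library reached the lowest day 0 value. The fall was 2.12-fold, with a log2 difference of -1.08 (SE 0.21, adjusted p = 0.00144).

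SRSF2, which binds purine-rich and C-rich exonic enhancers, was at 13.64 and 13.31 in G1, 14.12 and 13.71 in S and 13.26 in G2 before treatment. At day 28 it was at 11.91 and 11.66 in G1 but at 13.40 in S and 13.02 in G2, so only the S library of day 28 lay within the day 0 range. Its log2 difference was -0.99 (SE 0.26, adjusted p = 0.00781). SRSF8, an intronless copy of the SRSF2 gene, went from 10.18 and 9.88 in G1, 9.72 and 9.56 in S and 9.52 in G2 to 9.07 and 8.73, 8.87 and 9.09, a difference of -0.85 (SE 0.27, adjusted p = 0.0191). Its call was lost without the day 0 G1 library of clone 1, in clone 1 alone, by total reads (-0.58, adjusted p = 0.11) and with the trend against span length removed from each library (-0.43, adjusted p = 0.183). SRSF2 lost its call with that trend removed as well (-0.59, adjusted p = 0.0605).

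SRSF9 was the steadiest of the SR genes at day 0, at 14.69 and 14.68 in G1, 14.76 in both S libraries and 14.82 in G2. It was lower in each day 28 library, at 13.64 and 13.96 in G1, 14.14 in S and 14.36 in G2. The log2 difference was -0.71 (SE 0.17, adjusted p = 0.00472), and the call was lost with quantile scaling and with scaling by total reads. SRSF1, the founding member of the family, had means of 13.33 ± 0.29 (SD, n = 5) and 13.30 ± 0.27 (SD, n = 4) and a log2 difference of 0.03 (SE 0.19, adjusted p = 0.908). SRSF6 at 0.47, SRSF7 at -0.51 and SRSF10 at -0.11 did not pass either. SRSF6 was called higher with quantile scaling (1.07, adjusted p = 0.0165) and by total reads (0.75, adjusted p = 0.0217). So it was with the span trend removed (0.68, adjusted p = 0.0496), in clone 1 alone (0.79) and without the day 28 G1 library of clone 7 (0.69). SRSF7 was called lower with median-of-ratios scaling (-0.62, adjusted p = 0.0448) and without the day 28 S library (-0.82).

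HNRNPH2, the X-linked twin of HNRNPH1, fell most of all 34 genes (chrX:101411989-101413338). Its values at day 0 were 13.06 and 12.07 in G1, 12.93 and 12.34 in S and 13.22 in G2, and at day 28 they were 11.23 and 10.49 in G1, 11.20 in S and 11.20 in G2. The clone 7 libraries were lowest on both days and the days did not overlap. The log2 difference was -1.70 (SE 0.26, adjusted p = 0.000382), a 3.24-fold fall. HNRNPF, a binder of G-rich runs like the H proteins, was at 14.43 and 13.96 in G1, 14.55 and 14.30 in S and 14.06 in G2, then at 12.65 and 11.57, 13.52 and 12.95. It fell by 1.49 on the log2 scale (SE 0.28, adjusted p = 0.00119).

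HNRNPH1 went the other way from these relatives. It stood at 15.14 and 16.04 in G1, 15.63 and 15.79 in S and 15.66 in G2 at day 0. At day 28 it was at 16.31, 16.85 and 16.49 in G1, S and G2 of clone 1, and at 15.68 in G1 of clone 7, within the day 0 range. In G1 its day 28 minus day 0 difference was 1.17 in clone 1 and -0.36 in clone 7. The log2 difference was 0.73 (SE 0.25, adjusted p = 0.0269), and the call was lost when any of 6 libraries was left out, with adjusted p up to 0.146. HNRNPH3, the fourth gene of this class, did not pass, with a difference of -0.19 (SE 0.21).

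HNRNPK, which binds C-rich RNA and DNA through KH domains, was the second largest fall (chr9:83969350-83978252, minus strand). It was at 15.98 and 16.36 in G1, 16.20 and 16.53 in S and 16.34 in G2 at day 0, and at 14.39 and 14.01 in G1, 15.01 in S and 15.01 in G2 at day 28. The days did not overlap, and the difference was -1.63 (SE 0.21, adjusted p = 0.000143). Among its class of KH and RRM proteins, HNRNPR fell by 1.23, HNRNPM by 1.01 and HNRNPL by 0.72 on the log2 scale. HNRNPLL, a close relative of HNRNPL best known in lymphocytes, did not pass at -0.12.

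HNRNPC, whose tetramers bind uridine runs and measure transcript length, was at 16.23 and 16.49 in G1, 16.22 and 16.40 in S and 16.58 in G2 at day 0. It was at 14.55 and 15.58 in G1, 14.93 in S and 15.21 in G2 at day 28, with the clone 7 library the highest of that day. Its difference was -1.34 (SE 0.23, adjusted p = 0.000636). HNRNPAB was at 15.38 and 15.63 in G1, 15.79 and 15.85 in S and 15.25 in G2, and then at 13.32 and 13.57 in G1 against 15.03 in S and 14.61 in G2. Its difference was also -1.34 (SE 0.26, adjusted p = 0.00138), and both G1 libraries of day 28 lay far below the S and G2 ones.

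In the class of A, B and D proteins, which pair RNA recognition motifs with glycine-rich tails, 7 of 9 genes fell and none rose, with a median of -0.82. HNRNPA1 fell by 1.14 and HNRNPA2B1 by 1.09 on the log2 scale, and in both the day 28 G2 library lay within the day 0 range. HNRNPA0 at -0.38 and HNRNPA1L2 at 0.40 did not pass, but HNRNPA1L2 was called higher with the span trend removed (0.81, adjusted p = 0.0438). In the class of HNRNPU, a nuclear scaffold protein that binds RNA, HNRNPU, HNRNPUL1 and HNRNPUL2 fell, by 1.07, 0.95 and 0.55 on the log2 scale. The readthrough HNRNPUL2-BSCL2 did not pass at -0.29 and shares its reads with HNRNPUL2. Quantile scaling ended the calls of 9 HNRNP genes, HNRNPA1, HNRNPA2B1, HNRNPA3, HNRNPD, HNRNPDL, HNRNPL, HNRNPM, HNRNPU and HNRNPUL2. Scaling by total reads also ended those of HNRNPD, HNRNPDL, HNRNPL and HNRNPUL2, and that of HNRNPA1L3 (-0.89, adjusted p = 0.0743). HNRNPA1L3 had fallen by 1.17 on the log2 scale (SE 0.42, adjusted p = 0.0322), with 55 to 471 reads per library. Its call was lost in 9 alternatives, among them clone 1 alone, the span trend removed and several fits without 1 library. The calls of HNRNPD and HNRNPUL2 were each lost in 9 alternatives, 5 of them fits without 1 library (the day 0 G1 library of clone 7, either day 28 G1 library or either G2 library). There the adjusted p was 0.0526 to 0.0743 for HNRNPD and 0.0544 to 0.0823 for HNRNPUL2.

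**Figure D2:**
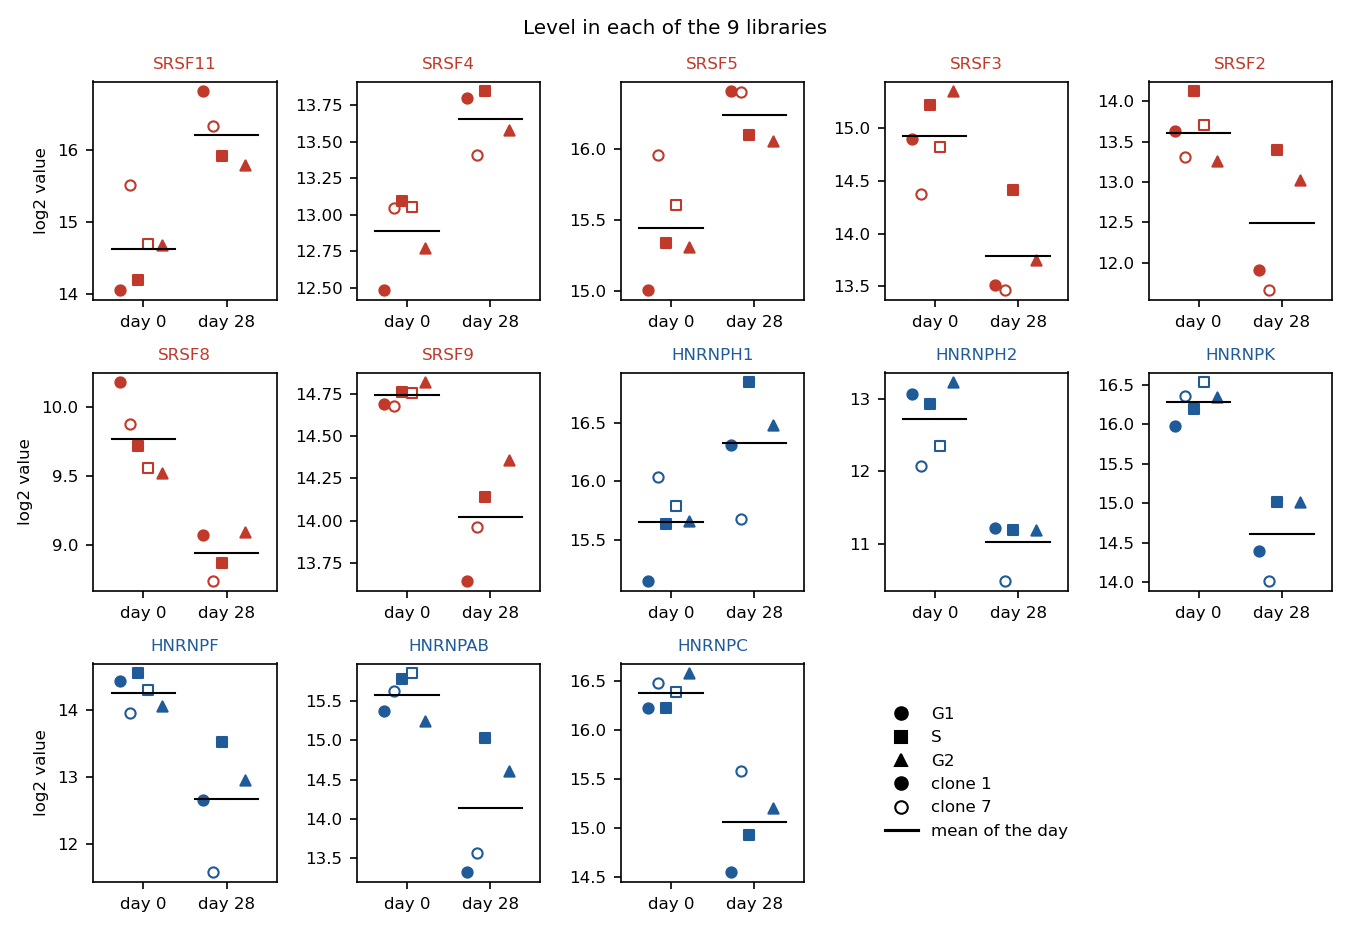
Log2 value (y axis) of the 13 named genes in each of the 9 libraries, by day (x axis), with circles for G1, squares for S and triangles for G2. Filled symbols are clone 1, open ones clone 7, and black lines are the mean of a day. SRSF11, SRSF4 and SRSF5 lie higher at day 28, and in HNRNPAB the 2 day 28 G1 libraries lie at 13.32 and 13.57, below S and G2.

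The promoters of the members that moved are shown for what their letters hold. RefSeq sequence (GRCh38.p14) was available for 35 of the 39 genes, 11 SR and 24 HNRNP genes, from 250 bases before to 50 after each annotated start. HNRNPA1, HNRNPA1L3, HNRNPCL3 and SRSF2 had no entry. The 150 bases before the start are printed 5′ to 3′ on the gene's strand, in lower case, for 4 HNRNP genes and SRSF3, which fell, and for SRSF4, SRSF5 and SRSF11, which rose. HNRNPH1, which rose too, has several annotated starts and is not printed. SRSF11 has another annotated start as well (150 bases at chr1:70205546-70205695), and only the one nearer its coding span is printed. Capitals mark the CCAAT box (or ATTGG on the other strand). They also mark the GC box, GGGCGG, and its reverse complement. The TATA box (TATAAA) and the E-box (CACGTG) are marked too.
HNRNPC (chr14:21269443-21269592, minus strand): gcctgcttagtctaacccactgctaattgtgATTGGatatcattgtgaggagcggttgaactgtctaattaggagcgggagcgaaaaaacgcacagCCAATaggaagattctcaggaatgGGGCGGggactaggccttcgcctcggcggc
HNRNPAB (chr5:178204383-178204532, plus strand): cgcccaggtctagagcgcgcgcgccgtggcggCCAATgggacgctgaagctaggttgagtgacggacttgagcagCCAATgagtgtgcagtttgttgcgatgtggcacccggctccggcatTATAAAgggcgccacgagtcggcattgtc
HNRNPH2 (chrX:101408072-101408221, plus strand): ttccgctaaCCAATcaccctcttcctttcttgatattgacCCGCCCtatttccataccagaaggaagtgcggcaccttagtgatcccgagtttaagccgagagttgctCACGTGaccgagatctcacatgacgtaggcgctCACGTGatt
HNRNPD (chr4:82373992-82374141, minus strand): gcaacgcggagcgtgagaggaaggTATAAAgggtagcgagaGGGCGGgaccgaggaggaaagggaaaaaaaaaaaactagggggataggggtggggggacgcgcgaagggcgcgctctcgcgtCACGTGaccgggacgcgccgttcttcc
SRSF3 (chr6:36594212-36594361, plus strand): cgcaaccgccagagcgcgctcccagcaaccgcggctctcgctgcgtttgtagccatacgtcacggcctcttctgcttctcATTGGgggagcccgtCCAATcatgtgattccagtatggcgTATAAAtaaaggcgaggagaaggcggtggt
SRSF4 (chr1:29181901-29182050, minus strand): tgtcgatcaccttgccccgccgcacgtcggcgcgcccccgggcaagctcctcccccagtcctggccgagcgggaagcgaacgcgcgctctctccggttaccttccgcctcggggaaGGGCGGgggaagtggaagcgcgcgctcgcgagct
SRSF5 (chr14:69766992-69767141, plus strand): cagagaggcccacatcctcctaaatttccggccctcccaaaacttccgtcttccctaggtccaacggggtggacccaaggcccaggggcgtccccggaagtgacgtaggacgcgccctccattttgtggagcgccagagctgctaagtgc
SRSF11 (chr1:70221230-70221379, plus strand): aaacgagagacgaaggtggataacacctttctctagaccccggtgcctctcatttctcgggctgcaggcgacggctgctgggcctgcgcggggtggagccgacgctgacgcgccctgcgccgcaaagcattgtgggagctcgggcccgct
HNRNPC, HNRNPAB and SRSF3 hold 2 CCAAT boxes each in these bases and HNRNPD holds none. SRSF4 holds a GC box, and SRSF5 and SRSF11 hold no capital. The sequences were picked from the members that moved and are no test of a contrast between them.

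Over the whole windows of 300 bases, both strands searched, 20 of 24 HNRNP genes and 2 of 11 SR genes (SRSF3 and SRSF8) held CCAAT or ATTGG in at least 1 promoter. Of all 27305 genes with an entry, 39.7% did, as did 43.6% of the tested genes with an entry and 45.5% of those with a mean log2 value of at least 14. Of single promoters, 34.6% held it. HNRNPUL2 and HNRNPUL2-BSCL2 are counted separately although their windows overlap and share the same ATTGG. Some genes, such as HNRNPH1, have several annotated starts and so more windows that can hold it. By the day comparison, 15 of 18 genes that fell (not HNRNPD, HNRNPM and SRSF9) and 1 of 4 that rose (HNRNPH1) held it. The E-box was in 7 HNRNP genes and no SR gene, against 8.77% of all and 12.6% of tested genes. The GC box was in 18 HNRNP and 5 SR genes (48.3% of all, 77.7% of tested genes), among them 3 of the 4 that rose and 12 of the 18 that fell. TATAAA or TTTATA was in 3 of each family (13.99% of all, 8.22% of tested genes). TTTCCCGC, a form of the E2F site, was in SRSF10, HNRNPLL and HNRNPUL1 on either strand (1.98% of all, 3.40% of tested genes), and TGACGTCA in none (2.25% and 3.82%). A start at C with 4 pyrimidines behind it, as in terminal oligopyrimidine messages, was seen for SRSF9 and HNRNPA0 (5.14% and 7.56%). These are matches of letters, and nothing was measured at these promoters.

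Phase by phase the HNRNP differences were larger in G1, but the test of this did not pass. Within clone 1, the median log2 difference of day 28 minus day 0 over the 23 HNRNP genes was -1.16 in G1, -0.45 in S and -0.48 in G2, and in G1 of clone 7 it was -1.47. The medians of all tested genes lay between -0.01 and 0.05 in these 4 pairs. The SR medians were 0.12, 0.19 and -0.23 in G1, S and G2 of clone 1 and -0.72 in G1 of clone 7. The difference between G1 and the other phases was tested as a day-by-phase term, and no gene passed, 0 of 12391, by limma on the values or by voom on the recovered reads. At an unadjusted p under 0.05 there were 1382 genes by the former and 1612 by the latter, and 10 of the 34 members by the former. Their largest terms were 1.34 for HNRNPAB (SE 0.32, adjusted p = 0.26) and 1.34 for HNRNPA2B1 (SE 0.38, adjusted p = 0.26). In clone 1 alone 82 genes had a higher and 70 a lower term, and without its day 28 G1 library 49 and 7 did, with no member among them in either fit. The phase pattern is therefore a description of 4 pairs of libraries.

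In these pairs HNRNPAB was at -2.06 in G1 of either clone, -0.75 in S and -0.64 in G2. HNRNPA2B1 was at -1.59 and -2.04 in G1, -0.51 in S and -0.44 in G2. HNRNPH2 had differences of like size in every phase, -1.84 and -1.58 in G1, -1.74 in S and -2.02 in G2. So had HNRNPC, at -1.68 and -0.90 in G1, -1.29 in S and -1.37 in G2. SRSF11 was at 2.76 in G1 of clone 1, against 0.81 in clone 7, 1.72 in S and 1.12 in G2. SRSF6, which did not pass over both days, was at 1.49 in G1 of clone 1 and at -0.39 in G1 of clone 7, so the clones differed in sign. They did so in G1 for HNRNPH1 (1.17 in clone 1, -0.36 in clone 7) and HNRNPA1L2 (0.94, -0.24) as well. The same held for SRSF10 (0.12, -0.84) and HNRNPLL (0.10, -0.17).

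**Figure D3:**
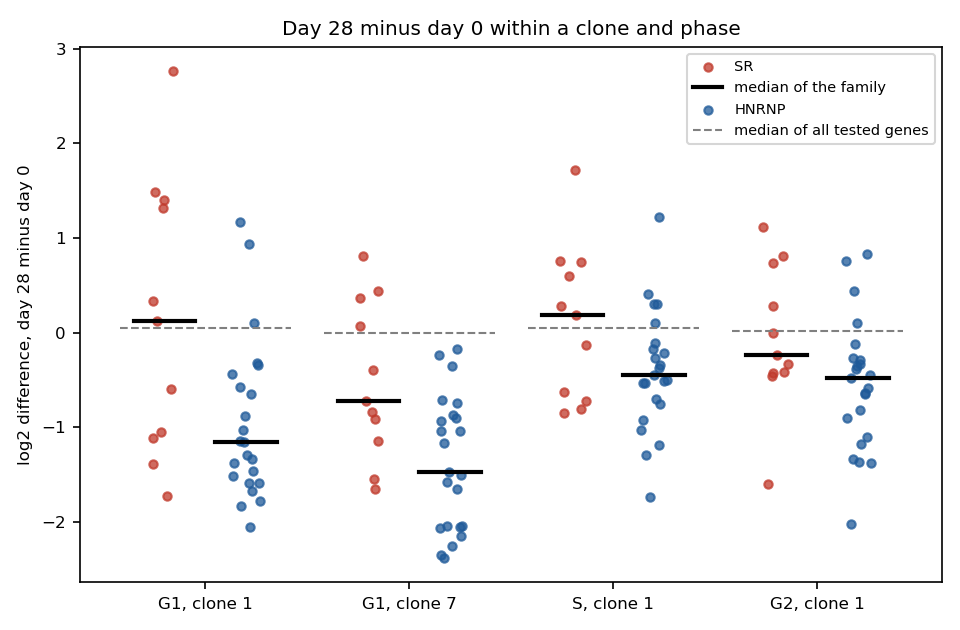
Log2 difference of day 28 minus day 0 (y axis) in each pair of libraries of the same clone and phase (x axis). Points are the 11 SR genes (red) and 23 HNRNP genes (blue), black bars the family medians and dashed lines the medians of all tested genes. The HNRNP medians lie at -1.16 and -1.47 in G1 and at -0.45 and -0.48 in S and G2.

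As a share of all reads over gene spans, the HNRNP genes together held 1.10% to 1.39% at day 0. At day 28 they held 0.638% and 0.635% in the G1 libraries of clones 1 and 7, 1.03% in S and 1.16% in G2. The G1 libraries of day 28 were the lowest 2 of the 9, while the G2 library lay inside the range of day 0. The SR genes held 0.224% to 0.282% at day 0 and 0.320% to 0.441% at day 28, without overlap. In each day 28 library SRSF11 and SRSF5 had the highest values of the SR genes. The reads of HNRNPUL2 are counted in these shares for the readthrough gene too.

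**Figure D4:**
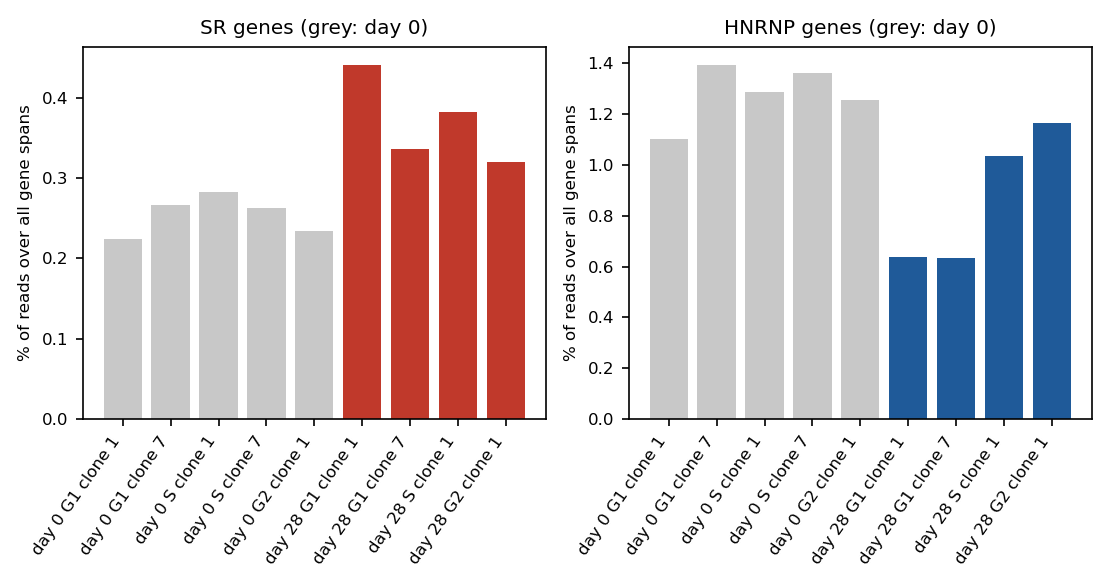
Share of all reads over gene spans (y axis, percent) held by the SR genes (left) and the HNRNP genes (right) in each library, day 0 in grey and day 28 in colour. The HNRNP share was 0.638% and 0.635% in the day 28 G1 libraries, and all 4 day 28 SR shares stand above the day 0 bars.

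In G1 alone, the only phase with both clones on both days, 17 HNRNP genes fell and none rose, and 5 SR genes fell and 2 rose (SRSF11 and SRSF4). The contrast of the G1 means used the spread pooled over all groups, and 39% of all genes were called, 19.1% lower and 19.8% higher. The HNRNP median was -1.29. The largest falls were HNRNPF at -2.08 (SE 0.38, adjusted p = 0.0068), HNRNPAB at -2.06 (SE 0.25, adjusted p = 0.0027) and HNRNPK at -1.97 (SE 0.29, adjusted p = 0.0039). HNRNPA0 at -1.02 and SRSF7 at -1.07 passed here and not over all phases. HNRNPD at -0.87, SRSF5 at 0.92 and HNRNPH1 at 0.41 did the reverse. With clone as a block HNRNPD passed in G1 too (-0.87, adjusted p = 0.0192), and SRSF5 rose there (0.92, adjusted p = 0.032). Markers of the cell cycle were also lower in sorted G1, 4 of 5 for S phase with a median of -2.70 and 4 of 5 for G2 and mitosis with a median of -2.77. Their part in the G1 differences was not tested. The number of falls went from 22 to 12 with quantile scaling and to 11 by total reads. Over all genes the falls went from 2372 to 2607 and to 1514 in these fits. Fewer members fell without the day 0 G1 library of clone 7 or without the day 28 G1 library of clone 1 or of clone 7. HNRNPL, for instance, went from -0.96 to -0.68, -0.76 and -1.16 in that order, and was not called there. No member was called higher without the day 0 G1 library of clone 1 or without either day 28 G1 library. In those fits the lone library of a group is assumed to vary like the others.

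Between phases, with the days pooled, no member passed for S against G1 (0.613% of genes did, 0.573% higher and 0.0404% lower) or for G2 against G1 (2.24%, with 1.61% higher and 0.638% lower). At an unadjusted p under 0.05 there were 10 members for S, where 12.8% of all genes were, and 6 of 34 members for G2, where 17.9% of all genes were, which is no larger a share. By voom 0 members were called, with 10 and 6 at an unadjusted p under 0.05 (13.9% and 20.4% of all genes). The HNRNP median was 0.42 for S against G1, where that of all genes was -0.03, and 20 of 23 differences lay above 0, as did 47.0% of all genes. For G2 against G1 it was 0.50, where that of all genes was 0.02, and all 23 HNRNP differences lay above 0, as did 51.5% of all genes. The nearest to the threshold were HNRNPUL1 in S, at 0.91 (SE 0.21, adjusted p = 0.11), and HNRNPUL2-BSCL2 in G2, at 0.84 (SE 0.25, adjusted p = 0.12). HNRNPUL1 passed for S without the day 0 G1 library of clone 1, and HNRNPUL2-BSCL2 for G2 without that of clone 7. Between clones 7 and 1 no member passed either (0.613% of genes did, 0.387% higher and 0.226% lower, with 4 members and 15.6% of genes at an unadjusted p under 0.05). By voom 0 members were called and 5 were at an unadjusted p under 0.05, with 16.5% of genes. HNRNPH2 came nearest, at -0.77 (SE 0.20, adjusted p = 0.10), and HNRNPA1 was at 0.76 (SE 0.32, adjusted p = 0.29).

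The table lists several nested coding spans for most members, so the reads of an inner span and of the rest of the gene could be compared. For 25 members and 5662 genes in all, the log2 ratio of inner to outer reads was fitted with day and phase. Of all these genes 33.3% were called, 10.6% with the ratio higher at day 28 and 22.7% lower. Among the members it was higher in SRSF4 and HNRNPA3 and lower in HNRNPD, SRSF5, HNRNPL and HNRNPM, 6 in all. This count is not above the share of all genes. The share of reads in very long spans rose with day, as given above, and its part in these ratios was not tested.

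HNRNPD encodes AUF1, a protein that binds AU-rich elements and speeds the decay of mRNAs. Its 3′ 4.31 kb (chr4:82355334-82359639) had 2700 to 24195 reads at day 0 and 3855 to 11039 at day 28, and the 14.04 kb upstream, of which 2.29% is exon, had 351 to 2994 and 2044 to 3314. Per library the log2 ratio was 3.01 and 2.94 in G1, 2.94 and 2.76 in S and 3.74 in G2 at day 0, and 0.92 and 1.29 in G1, 1.61 in S and 1.76 in G2 at day 28. All day 28 ratios lay below all of day 0, and the difference was -1.71 (SE 0.24, adjusted p = 0.000744). The 3′ part had a log2 difference of -0.91 (SE 0.23), and 18.1% of it is exon, so both parts are mostly intron. The upstream part went from between 11.37 and 12.21 to between 12.31 and 12.84, a difference of 0.80 (SE 0.22). The piece of 13.9 kb inside it, with 1.20% exon, held 4.4% to 10.1% of the gene's reads at day 0 and 17.2% to 32.4% at day 28. The value of HNRNPD over the whole span, -0.60, thus joins parts with differences of opposite sign.

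SRSF4 had a like split at its 5′ end. The first 15.7 kb of its span (chr1:29166009-29181752, minus strand), 0.680% of it exon, held 440 and 121 reads in the day 0 G1 libraries of clones 1 and 7, 260 and 249 in S and 237 in G2. At day 28 there were 1633 and 1840 in G1, 1336 in S and 880 in G2. On the log2 scale this part was 2.19 higher (SE 0.37) without overlap, and the remaining 17.6 kb was 0.51 higher (SE 0.20) with overlap. The ratio of the parts differed by 1.68 (SE 0.38, adjusted p = 0.00673). The remaining part was 7.83% exon, so both parts are mostly intron.

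In SRSF5 the change sat at the other end. The span of the transcript SRSF5-211, annotated as a target of nonsense-mediated decay, ends 1.90 kb before the last stop codon of the gene. Its final 30 coding bases are printed with the stop codon in capitals, beside those of SRSF3-203, the inner span of SRSF3, and SRSF11-212, that of SRSF11.
SRSF5-211: atgacgaggagtgcctgtgggttatccTAA
SRSF3-203: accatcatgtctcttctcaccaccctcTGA
SRSF11-212: gttgttcataaaacagcttttgaaagtTGA
Behind that stop, SRSF5 had 60.0% and 62.0% of its reads in G1 at day 0, 60.0% and 58.3% in S and 63.1% in G2. At day 28 it had 78.3% and 82.7% in G1, 73.3% in S and 69.8% in G2, all above day 0. This last 1.90 kb, 28.2% exon, was 1.10 higher on the log2 scale (SE 0.23), while the first 1.41 kb differed by 0.07 (SE 0.23). The ratio changed by -1.04 (SE 0.23, adjusted p = 0.00664).

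SRSF11 was higher on both sides of the stop of SRSF11-212, by 1.42 (SE 0.22) before it and by 1.56 (SE 0.31) behind it. The ratio differed by -0.14 (SE 0.31, adjusted p = 0.757). These parts of SRSF11 are 6.80% and 7.93% exon, so both are mostly intron. SRSF3 was at -1.47 (SE 0.25) before the stop of SRSF3-203 and at -0.75 (SE 0.24) behind it, but the ratio did not pass at -0.72 (SE 0.29, adjusted p = 0.078). That ratio was called lower when either G2 library was left out. HNRNPK, HNRNPC and HNRNPF lay lower on both sides without overlap, at -1.93 and -1.56, -1.73 and -1.13, and -1.85 and -1.43 for the inner part and the rest. Their ratios did not pass, but with clone as a block that of HNRNPC did (-0.66, adjusted p = 0.0245), as it did with a minimum of 50 reads. The ratio of HNRNPH1 passed with the block as well (-0.87, adjusted p = 0.0141), and when either day 0 library of clone 7 was left out. The ratio of HNRNPA2B1 did not pass in the main fit (-0.71, SE 0.32, adjusted p = 0.11). It was called lower when either G1 library of clone 7 was left out. HNRNPA3 kept more of its 3′ part, with -0.51 (SE 0.23) in the inner 2.77 kb and -1.44 (SE 0.22) in the rest (adjusted p = 0.00581 for the ratio). HNRNPL and HNRNPM lost more of their inner parts, with ratios of -1.12 (SE 0.31, adjusted p = 0.0173) and -0.96 (SE 0.25, adjusted p = 0.0123), and neither passed without the day 28 S library.

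**Figure D5:**
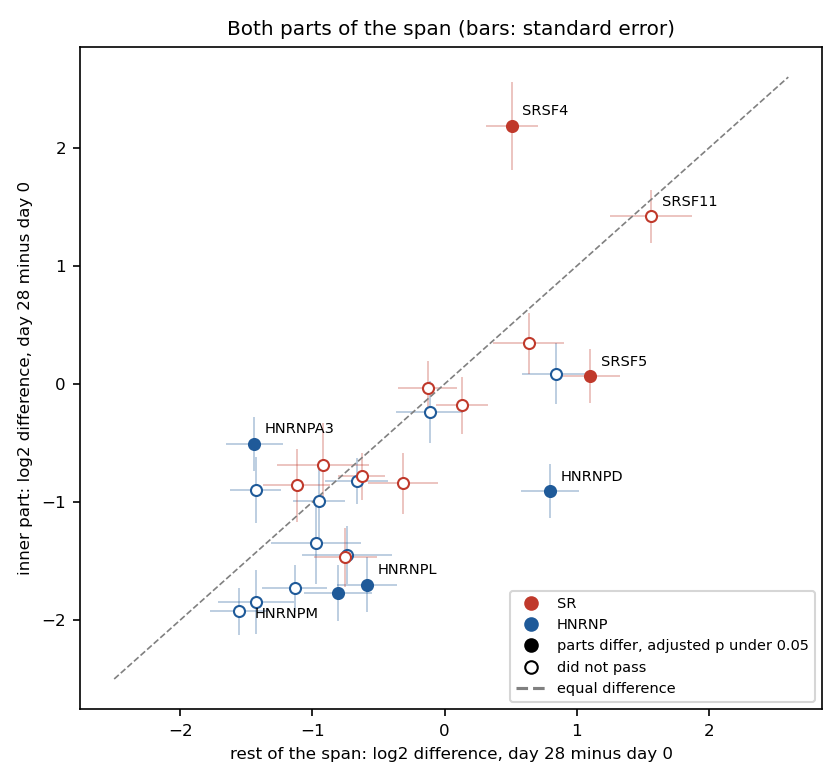
Log2 difference of day 28 minus day 0 in the inner part of a gene's span (y axis) against that in the rest of it (x axis) for 25 genes, bars being standard errors and the dashed line equal differences. Filled points are genes whose ratio passed. HNRNPD lies at 0.80 on the x axis and -0.91 on the y axis, SRSF4 at 0.51 and 2.19.

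Other lists of the splicing machinery moved in either direction. Of 18 SR-related proteins, which share the arginine-serine tail, 10 rose and RNPS1 fell, with a median of 0.61, and the largest rises were SREK1 at 1.504, TRA2A at 1.25, LUC7L at 0.93 and RBM25 at 0.89. Of 13 SR protein kinases, phosphatases and importers 7 rose and 2 fell (median 0.65). The kinases DYRK1A, SRPK2 and CLK4 rose by 2.28, 1.14 and 1.03, and the phosphatase subunits PPP1CA and PPP1CC fell by 1.51 and 1.40 on the log2 scale. These counts stand against 28.6% higher and 26.6% lower among all tested genes.

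Most snRNP proteins were lower at day 28. Of 25 Sm, LSm and snRNP proteins, the rings around spliceosomal snRNAs and their partners, 18 fell and SNRNP35 rose, with a median of -0.95. SNRNP40 was at -1.93, LSM3 at -1.88, SNRPD1 at -1.67 and SNRPG at -1.61 on the log2 scale. Of 15 factors for the branch site and the 3′ splice site 10 fell and U2AF1 rose (median -0.98). SF3B5 was at -1.65, PHF5A at -1.42 and SF3B6 at -1.38, and U2AF1, at 1.80, has a near-identical copy in this build that could take part of its reads. Of 21 spliceosome core and remodelling proteins 11 fell and none rose (median -0.57), with PRPF4 at -1.52, PRPF19 at -1.38, EFTUD2 at -1.28 and PRPF38A at -1.14.

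Relatives of the hnRNP proteins under other names were mixed, with 6 of 14 lower and 4 higher (median -0.43). The paralogs of the polypyrimidine tract binder went apart, PTBP1 falling by 1.01 on the log2 scale while PTBP2 and PTBP3 rose by 1.66 and 1.03, and SYNCRIP fell by 1.32. Among 15 tissue-restricted splicing regulators 8 rose and KHDRBS1 fell (median 0.83), with RBFOX1 at 2.75, MBNL2 at 2.58, QKI at 2.41 and NOVA1 at 2.14. Of 14 genes of nonsense-mediated decay and the exon junction complex 5 rose and 7 fell (median -0.46). SMG6, SMG1 and UPF2 rose by 1.63, 1.48 and 1.19, and RBM8A, EIF4A3 and UPF1 were at -1.18, -1.07 and -0.79. The share of reads in very long spans also rose with day, and its part in these lists was not tested.

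The cell cycle markers moved with the day as well. Of 5 S phase markers 4 fell, MCM6 by 2.09 and RRM2 by 1.91 on the log2 scale, and of 5 markers of G2 and mitosis 4 fell, CDC20 by 2.25 and CCNB1 by 1.98. Among 7 lung epithelial markers 4 fell and NAPSA rose by 2.76, and of the 2 other cell type markers tested PECAM1 fell by 2.50 on the log2 scale. What part these play in the HNRNP falls was not tested.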

How the data were processed

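Poly(A) RNA of 9 sorted PC9 libraries was made into strand-specific libraries, per the labels. The authors deposited log2 values for 80037 coding transcripts on GRCh38. HISAT2 2.1.0 and DESeq2 (no version) are named in the submitters' processing notes, and the counter and scaling are not given in the sources used here. Each deposited log2 value was, as checked from the values, a whole read number times 1 factor per library, with 0.9 entered for no read (100% of values up to 1000 reads within 0.05). An inner span never held more reads than an outer one, so introns are counted.

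After returning the values to a linear scale, log2(value + 1) was tested with limma 3.58.1 (R 4.3.3; lmFit, eBayes with trend, Benjamini-Hochberg over all tested genes, adjusted p under 0.05). Genes needed a mean log2 of 7.01. Parts of a span needed 20 reads in each library. Scripts were tested on simulated data. Named genes are the members that passed, up to 5 per family and direction by size. The members and lists were chosen with earlier results of these data known. The clones pair the libraries: deviations of clone 7 from clone 1 correlated at 0.653, 0.115 and 0.296 between the 3 matched groups. Precision is limited by depth, 8.83 M reads (M for mega) in the shallowest library. The alternatives were other scalings, filters, pseudocounts, spans, voom, a clone block, clone 1 alone and leaving out each library; the scaling by total reads was added after seeing the data.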

Additional observations from a re-analysis of the deposited data

Results flagged for a closer look

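In a pair of genes, the day 28 minus day 0 differences had opposite signs in G1 and in the S and G2 libraries. HNRNPH3, a G-run binder of the F and H class, was at -0.32 and -0.87 in G1 of clones 1 and 7, at 0.30 in S and at 0.10 in G2. SRSF1 was at 0.33 and 0.07 in G1, at -0.13 in S and at -0.41 in G2. The day-by-phase term did not pass for HNRNPH3 (0.75, SE 0.33, adjusted p = 0.45 by limma) or SRSF1 (-0.32, SE 0.36, adjusted p = 0.79), and the signs themselves were not tested. No group held enough libraries to look for a single outlying one.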

How the results depend on the processing

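Of the 21 falls and 4 rises over both days, 8 and 3 were called in all 21 alternatives, and 17 and 3 in every fit that left out 1 library. The 8 were HNRNPAB, HNRNPC, HNRNPF, HNRNPH2, HNRNPK, HNRNPR, HNRNPUL1 and SRSF3. Leaving out 1 library gave 18 to 22 falls and 3 to 5 rises. Quantile scaling gave 11 falls, and 3400 of all 12391 genes fell with it. In G1, 22 falls became 12 with quantile scaling, 10 with the span trend removed and 11 with scaling by total reads. Over all genes, 2372 falls became 2607, 2258 and 1514 in these fits. The 2 rises became 4 with quantile scaling and 1 with median-of-ratios scaling or no filter. Over all genes, 2459 rises became 2290, 2268 and 2929, the last of 20442 genes. Calls in G1 also changed in fits without 1 library. For S against G1, the only member called higher in a fit without 1 library was HNRNPUL1 (1.09, without the day 0 G1 library of clone 1). For G2 against G1 it was HNRNPUL2-BSCL2 (1.00, without the day 0 G1 library of clone 7). The calls over all genes changed in these fits as well. Leaving out 1 library gave 2 to 6 lower ratios of inner to outer reads. Scaling by total reads moved the median of all genes to 0.29, quantile scaling to -0.11 and median-of-ratios to -0.10. With clone as a block, 21 falls and 4 rises were called over both days, and in G1 23 falls and 3 rises; other counts by clone block were the same but for 6 lower ratios. The cause of these changes was not tested. The G1 comparison in clone 1 alone could not be fitted.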

Other observations

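The last 64 bases of the HNRNPC span, all of them exon (chr14:21211223-21211286, minus strand), held 226, 739 and 890 reads in the 3 clone 7 libraries (day 0 G1, day 0 S and day 28 G1). The 6 clone 1 libraries had 8 to 19 reads there, although each of them was deeper than both clone 7 libraries of day 0. The piece held 3.0% to 4.5% of the HNRNPC reads in clone 7 and at most 0.1% in clone 1. HNRNPC encodes a core component of hnRNP particles, and its whole-span value did not pass between the clones (0.46, SE 0.22, adjusted p = 0.34 by limma). The piece was noticed after its values were seen, and no test was made of it.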
